A study of Mus musculus with 30 samples.

Results

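Collagens are triple-helical proteins of the extracellular matrix, each molecule being wound from α chains, and each kind of chain has a gene of its own. The collagen chain genes described here were the 31 genes whose symbol on the array begins with Col and gives a collagen type and an α chain number, out of 8251 genes measured. They were read by 44 probe sets, and each gene is represented by its brightest probe set over the 30 arrays. Of the 31 genes, 9 have further probe sets, which are given as a check beside the results. By the kind of structure their protein forms, 8 genes encode fibrillar collagens, 7 encode collagens that sit on fibril surfaces or related fibril-associated chains, 5 encode type IV chains of the basement membrane, and 3 encode type VI chains of the beaded filaments around cells. The remaining 8 encode 2 multiplexins, 2 short-chain network collagens, 2 transmembrane collagens, the anchoring fibril chain of type VII and Col26a1.

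The arrays were Affymetrix MG_U74Av2 chips hybridized with RNA from mouse left ventricle, and the study asked how diet, sex and an inherited heart muscle disease shape cardiac gene expression. All mice were C57BL/6 and 2 months old, and each array carried the pooled RNA of 2 animals. The genotype labelled HCM, hypertrophic cardiomyopathy, was set against wild type, a casein-based diet against the standard soy-based diet, and females against males. There were 4 female and 4 male HCM samples on casein, 4 female and 4 male wild-type samples on casein, 3 female and 3 male HCM samples on soy, and 4 female and 4 male wild-type samples on soy. The labels do not name the mutation behind the HCM genotype, and they do not say whether the pools of a group came from separate litters, so that p-values measure the spread between these samples only. Each pool averages its animals, and in whole ventricle fewer cells of a type and less RNA per cell cannot be told apart.

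In the heart, cardiac fibroblasts make most of the fibrillar matrix. Type I and type III collagens form the load-bearing fibrils between muscle bundles, and type V is built into those fibrils and limits their diameter. Type IV chains form the sheet-like basement membrane that encloses each cardiomyocyte and capillary, type VI filaments link that membrane to the fibrils, and type XV collagen lies at the outer face of the basement membrane of muscle and capillaries. Fibrillar collagens accumulate in fibrosis, a known feature of hypertrophic cardiomyopathy.

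Values are log2 intensities after robust multi-array averaging (RMA), so that a difference of 1 is a doubling, and levels of different genes are not compared because each probe set has its own brightness. Differences are given as log2 difference ± standard error from 1 limma model of all 30 arrays, with p-values adjusted by the Benjamini-Hochberg method over all 8251 genes, and a gene is said to have risen or fallen where its adjusted p was below 0.05. Probe sets of 4 Y-linked genes on female arrays, which have no target there, averaged 3.89 to 5.76, and 7 of the 31 collagen probe sets had a mean at or below the upper end of that range. Those 7 were Col4a3, Col10a1, Col11a1, Col12a1, Col19a1, Col22a1 and Col26a1. The lowest mean above the range was 5.83, for Col2a1, and the highest within it was 5.52. The upper end came from Sry alone, which averaged 5.76 on female and 5.77 on male arrays, and the next highest, Kdm5d, averaged 4.79 on female arrays. Col10a1 (5.21), Col12a1 (5.52) and Col26a1 (5.46) lie above that value. Because each probe set has its own brightness, the range is a rough guide only.

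The hybridization controls, which are spiked into every sample, split the arrays along the design. The control BioD exceeded BioC by 0.67 to 0.88 on the 8 casein HCM arrays, by 0.89 to 1.13 on the 6 soy HCM arrays and by -0.23 to 0.37 on the 8 soy wild-type arrays. Among the casein wild-type arrays, the difference was 1.01 to 1.19 on replicates 1 and 2 of both sexes (set A) and -0.86 to -0.66 on replicates 3 and 4 (set B). The spiked poly-A control Dap gave 8.22 to 9.10 on the casein HCM arrays and 4.17 to 5.02 on the other 22. Each set holds females and males in equal number, whereas each combination of diet and genotype has sets of its own, so that an effect of genotype or diet cannot be told apart from a difference between sets. Set A exceeded or fell below set B in 12.6% of all genes although both hold the same genotype and diet. Among the collagen genes 3 differed between them: Col9a2 was higher in set A by 0.42 ± 0.10 (adjusted p = 0.0075), Col14a1 was higher in set A by 0.30 ± 0.09 (adjusted p = 0.0287) and Col6a2 was lower in set A, with a difference of -0.48 ± 0.09 (adjusted p = 0.000641). The main results for these 3 genes are therefore given with each set alone as well.

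Promoter sequences show how the members are arranged in the genome and were available for 22 of the 31 genes, as 300-base windows from RefSeq (GRCm38.p6) that end 50 bases after the start of the gene. Several members are direct neighbours, namely Col4a1 and Col4a2, Col6a1 and Col6a2, Col3a1 and Col5a2, Col4a3 and Col4a4, and Col9a1 and Col19a1. Col4a1 and Col4a2, which encode the chains of the commonest type IV molecule, lie on opposite strands of chromosome 8 with 20 bases between their starts. Those bases are not a gap, because each gene runs from its start across the start of the other. Their windows, chr8:11312777-11313076 on the minus strand and chr8:11312555-11312854 on the plus strand, share 78 bases, which are in capitals below and read as reverse complements of each other. They are shown because the paired genes are compared below.
Col4a1: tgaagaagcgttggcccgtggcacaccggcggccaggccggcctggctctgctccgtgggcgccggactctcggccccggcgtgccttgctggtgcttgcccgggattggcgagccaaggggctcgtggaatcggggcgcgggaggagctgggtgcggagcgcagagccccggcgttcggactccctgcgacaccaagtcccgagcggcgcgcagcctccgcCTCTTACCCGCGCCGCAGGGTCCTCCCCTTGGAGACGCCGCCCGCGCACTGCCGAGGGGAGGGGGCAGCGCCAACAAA
Col4a2: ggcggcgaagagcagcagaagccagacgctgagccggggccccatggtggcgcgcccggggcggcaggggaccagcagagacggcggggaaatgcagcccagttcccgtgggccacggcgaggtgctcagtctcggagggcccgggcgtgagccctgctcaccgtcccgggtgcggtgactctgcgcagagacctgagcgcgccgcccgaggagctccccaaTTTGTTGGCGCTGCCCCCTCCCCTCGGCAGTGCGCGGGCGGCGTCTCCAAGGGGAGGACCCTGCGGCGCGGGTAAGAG

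The promoter of Col5a1, the member with the largest genotype and diet differences, is the window chr2:27886175-27886474 on the plus strand, with its matches to the GC box in capitals.
Col5a1: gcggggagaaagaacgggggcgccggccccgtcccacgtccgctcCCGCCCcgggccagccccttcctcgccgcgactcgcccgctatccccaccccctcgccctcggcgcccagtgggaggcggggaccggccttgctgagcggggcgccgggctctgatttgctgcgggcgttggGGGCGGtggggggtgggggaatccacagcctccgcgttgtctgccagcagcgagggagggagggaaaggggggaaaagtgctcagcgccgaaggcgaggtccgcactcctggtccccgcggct
Matches to GGGCGG, the GC box bound by Sp1-type factors, were searched on both strands and found in 12 of the 22 collagen windows (54.5%), against 35.9% of all 27025 promoter windows. The letters CCAAT were found in 8 of the 22 (36.4%), against 37.9% of all windows. The letters TATAAA were found in 5 of the 22 (22.7%), against 14.2% of all windows. These counts describe letters in the windows and not sites in use.

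Females had higher signal than males for 4 collagen genes, the type VI chains Col6a1 and Col6a3, the type XV chain Col15a1 and the type V chain Col5a1, and no collagen gene was lower in females. The background of this comparison was 0.267%, as 22 of all 8251 genes passed the same test, 0.182% higher and 0.0848% lower in females. Of those 22, 6 lie on the X or Y chromosome, and the 4 collagen genes were among the 16 that do not. Over all 31 members, 20 differences were above 0 and the median was 0.02, beside 48.3% of all genes above 0 and a median of -0.0027.

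Type VI collagen is assembled from an α1, an α2 and an α3 chain, the first and second encoded by the neighbours Col6a1 and Col6a2 and the other by Col6a3 on another chromosome. Col6a1 had lowest, median and highest values of 8.77, 9.12 and 9.30 on the 15 female arrays, against 8.29, 8.86 and 9.10 on the 15 male arrays, and the ranges overlapped. Within casein HCM mice the Col6a1 values were 8.85, 8.91, 8.83 and 8.77 in females, against 8.50, 8.54, 8.29 and 8.59 in males. Within casein wild-type mice they were 9.16, 9.12, 9.13 and 9.24 in females, against 8.88, 8.86, 8.93 and 8.97 in males. In both casein combinations each female array lay above each male array. On soy the Col6a1 values were 9.15, 9.03 and 9.14 in female HCM mice, against 8.79, 8.96 and 9.03 in male HCM mice, with the lowest female just below the highest male. In soy wild-type mice they were 9.10, 9.26, 9.30 and 8.95 in females, against 9.10, 8.76, 8.93 and 8.70 in males, and these overlapped. The difference averaged over the 4 combinations of diet and genotype was 0.27 ± 0.04 (adjusted p = 0.0014).

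For Col6a3 the values were 7.91, 8.27 and 8.52 on female arrays, against 7.56, 8.0 and 8.31 on male arrays, in the same order of lowest, median and highest. Each female soy HCM array (8.47, 8.43 and 8.52) lay above each male soy HCM array (8.18, 8.21 and 8.31), and the same held in casein wild-type mice, with 8.44, 8.36, 8.26 and 8.27 in females, against 7.89, 7.90, 8.11 and 8.18 in males. In casein HCM mice, with 8.42, 8.33, 8.14 and 7.91 in females, against 8.0, 7.87, 7.62 and 7.86 in males, the sexes overlapped. They overlapped in soy wild-type mice as well, with 8.17, 8.23, 8.26 and 7.98 in females, against 8.08, 7.56, 8.0 and 7.70 in males. The mean difference was 0.31 ± 0.06 (adjusted p = 0.00431). The α2 chain gene Col6a2 differed by 0.19 ± 0.06 (adjusted p = 0.365), which did not pass the test. Col6a1 and Col6a3 passed with any of the 30 arrays left out.

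Col15a1 had 8.13, 8.72 and 9.02 on female arrays, against 7.79, 8.34 and 8.83 on male arrays, with a mean difference of 0.36 ± 0.08 (adjusted p = 0.0449). Its 4 female casein wild-type arrays had 8.72, 8.64, 8.67 and 8.76, against 7.98, 7.98, 8.47 and 8.51 on the male ones, so that the sexes did not overlap there. The difference was 0.34 in casein HCM mice, 0.46 in casein wild-type mice, 0.18 in soy HCM mice and 0.45 in soy wild-type mice. The Col15a1 call was kept in 7 of the 30 fits that left out 1 array, namely without female casein HCM replicate 4, male casein HCM replicate 4, male casein wild-type replicates 3 and 4, female soy wild-type replicate 4 or male soy wild-type replicates 1 and 3, and the adjusted p reached 0.132 in the others. It was also lost with arrays centred on their median (adjusted p = 0.0689), with all probe sets tested (0.0535) and with the replicate number as a block (0.0607).

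Col5a1 had 6.62, 8.01 and 8.13 on female arrays, against 6.42, 7.85 and 8.15 on male arrays, where the low ends are the casein HCM samples of each sex. Within casein HCM mice the values were 6.81, 6.92, 6.65 and 6.62 in females, against 6.47, 6.42, 6.52 and 6.53 in males, without overlap. The mean difference was 0.17 ± 0.04 (adjusted p = 0.0334), with 0.27 in casein HCM, 0.23 in casein wild-type, 0.04 in soy HCM and 0.16 in soy wild-type mice. This call was kept in 12 of the 30 fits that left out 1 array, namely without female casein HCM replicates 3 and 4, male casein HCM replicate 4, female casein wild-type replicate 2, male casein wild-type replicates 1, 2 and 3, male soy HCM replicate 1, female soy wild-type replicate 4 or male soy wild-type replicates 1, 2 and 3, and otherwise reached an adjusted p of up to 0.0979, and quantile normalization gave 0.0536. For all 4 genes the difference was above 0 in each combination of diet and genotype, and in set A and set B of the casein wild-type arrays taken alone.

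**Figure D1:**
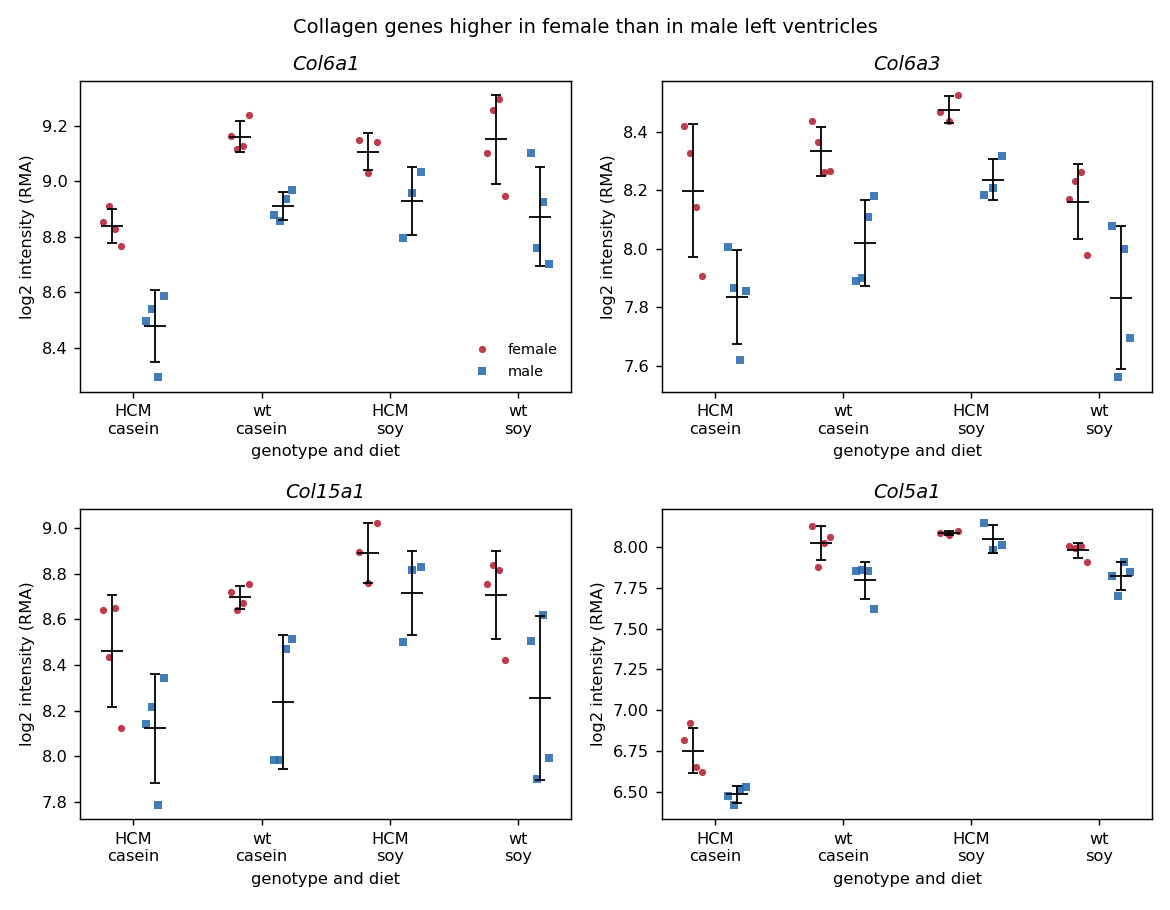
Log2 intensity (RMA) of Col6a1, Col6a3, Col15a1 and Col5a1 on each array, with females as circles and males as squares for each combination of genotype and diet; horizontal marks and bars are the mean ± SD of 3 or 4 arrays. The female mean lies above the male mean in each of the 4 combinations for each gene, and Col5a1 is lowest in casein HCM mice of both sexes, at 6.42 to 6.92.

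The calls by sex were lost when the casein HCM arrays were left out. Without those 8 arrays none of the 31 collagen genes passed in limma's test, beside 12 of all genes, and 9 members had an unadjusted p below 0.05, the differences being 0.29 for Col6a3 (adjusted p = 0.0532), 0.24 for Col6a1 (adjusted p = 0.106), 0.36 for Col15a1 (adjusted p = 0.228) and 0.14 for Col5a1 (adjusted p = 0.595). These differences are close to those over all arrays. Leaving out 8 other arrays was not tried, so that the part of the smaller sample in this loss was not tested. Over all arrays, 11 of the 31 members had an unadjusted p below 0.05. Among those that did not pass after adjustment, Col3a1 differed by 0.26 ± 0.07 (adjusted p = 0.195), Col1a1 by 0.25 ± 0.07 (adjusted p = 0.207), the fibril-surface chain Col14a1 by 0.23 ± 0.05 (adjusted p = 0.0856) and Col5a2, the partner chain of type V, by 0.14 ± 0.06 (adjusted p = 0.497). All 8 fibrillar genes had a difference above 0, of which Col5a1 passed. It was only 0.001 for Col2a1, 0.01 for Col1a2, 0.02 for Col11a2 and 0.09 for Col11a1. The count stands beside the share of all genes above 0 given earlier. The 5 type IV genes lay between -0.11 for Col4a3 and 0.10 for Col4a1, and none passed.

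Genes that act on collagen gave no call by sex. None of the 18 measured genes of collagen processing, such as prolyl hydroxylases, lysyl oxidases and the chaperone Serpinh1, passed the test, with 16 of the 18 above 0 and 3 at an unadjusted p below 0.05. None of the 5 measured collagen receptor genes passed. Of 12 fibroblast markers, 1 rose in females, the proteoglycan gene Lum, whose product binds collagen fibrils, by 0.68 ± 0.08 (adjusted p = 2.83e-06), and 9 of the 12 were above 0. The mean level of the fibroblast list had a lowest, median and highest value of 7.39, 7.61 and 7.84 on female arrays, against 7.36, 7.47 and 7.67 on male arrays, and its part in the collagen result was not tested.

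Collagen genes were called in the comparisons of genotype and diet about as often as genes at large, so that the counts say little about collagens as a group. Averaged over diet and sex, 2 collagen genes were higher and 8 lower in HCM than in wild-type mice, 10 of 31, against a background of 34.1% of all genes (18.7% higher and 15.4% lower). On casein 3 were higher and 11 lower in HCM mice, 14 of 31, against a background of 49.6% (26.9% higher and 22.7% lower). On soy 6 were higher and 3 lower in HCM mice, 9 of 31, against 25% (12.3% higher and 12.7% lower). Comparing diets averaged over genotype and sex, 7 were higher and 12 lower on casein than on soy, against a background of 62.9% (30.9% higher and 32% lower), and with each array centred on its median that split was 9 higher and 7 lower. Within HCM mice 5 were higher and 11 lower on casein, against 62.1% (31.9% higher and 30.1% lower). Within wild-type mice 6 were higher and 8 lower on casein, against 47% (21.6% higher and 25.4% lower), a split that became 7 higher and 5 lower with centred arrays and 6 of each with quantile normalization. The genotype effect itself differed between diets for 13 members, 3 with a higher and 10 with a lower effect on casein than on soy, against a background of 45.1% (25% higher and 20.1% lower). No member had a genotype or diet effect that differed by sex after adjustment, as was true of all genes (0%); 1 member for genotype and 3 for diet had an unadjusted p below 0.05 in limma's test, beside 345 and 1227 of all genes.

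**Figure D2:**
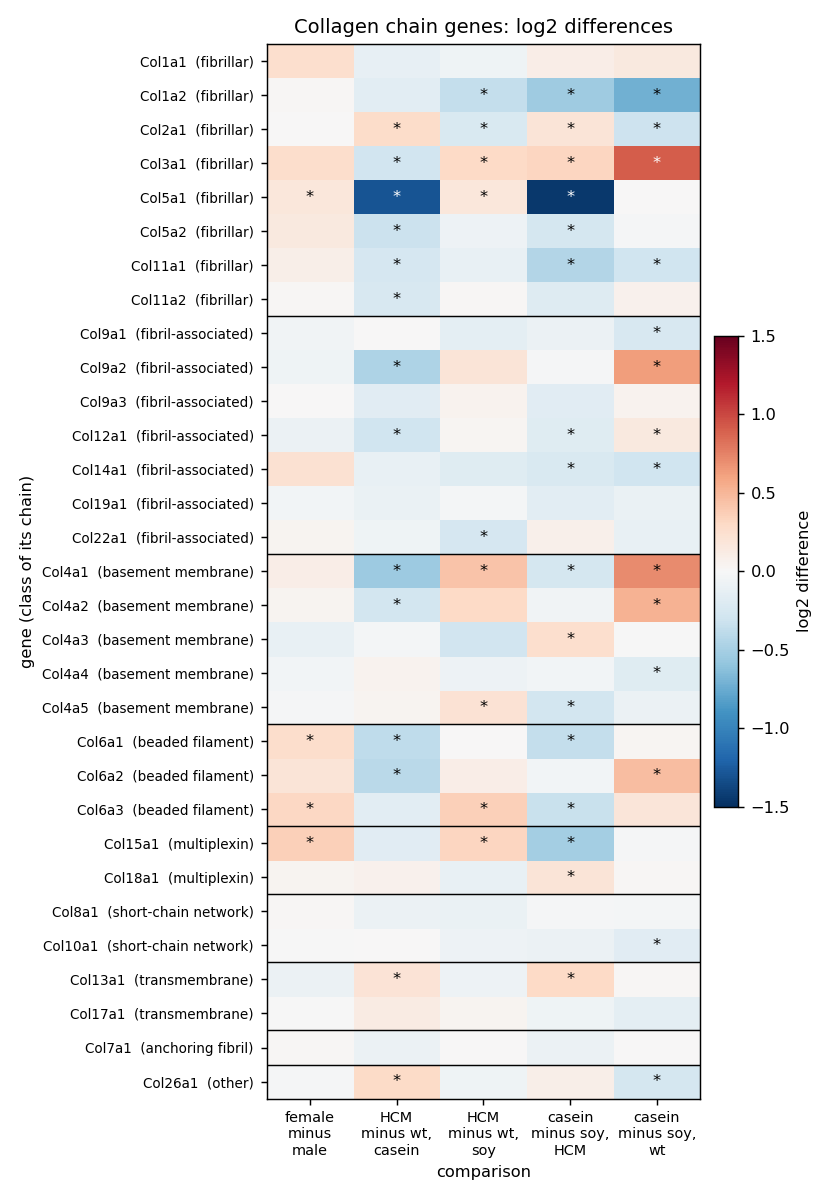
Log2 differences of the 31 collagen chain genes (rows, grouped by class of chain) in 5 comparisons (columns), in red where the group named first is higher and in blue where it is lower; asterisks mark an adjusted p below 0.05. Col5a1 has the deepest blue cells, -1.29 for HCM minus wild type on casein and -1.45 for casein minus soy in HCM mice, and the sex column carries 4 asterisks.

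Col5a1, the α1 chain of type V collagen, had the largest difference of the members. It had 6.42, 6.57 and 6.92 on the 8 casein HCM arrays, against 7.62, 7.87 and 8.13 on the 8 casein wild-type arrays. On soy it had 7.98, 8.08 and 8.15 on the 6 HCM arrays, against 7.70, 7.91 and 8.01 on the 8 wild-type arrays. The casein HCM arrays lay below all 22 other arrays, and the other combinations overlapped. On casein Col5a1 fell by 1.29 ± 0.05 in HCM mice (adjusted p = 2.63e-17), and the difference was -1.31 against set A and -1.27 against set B. On soy it was higher in HCM mice by 0.17 ± 0.06 (adjusted p = 0.0284). That small rise was lost without any 1 of 5 arrays, namely female soy HCM replicates 1 and 3, male soy HCM replicate 1, female soy wild-type replicate 4 or male soy wild-type replicate 2 (adjusted p up to 0.0752). The effect of genotype on casein minus that on soy was -1.46 ± 0.08 (adjusted p = 3.14e-14). Casein minus soy was -1.45 ± 0.06 (adjusted p = 1.04e-17) in HCM mice and 0.01 ± 0.05 (adjusted p = 0.897) in wild-type mice.

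A further probe set for Col5a1 gave the same direction on casein with a much smaller size, -0.29 ± 0.08 (adjusted p = 0.00246), and on soy it gave -0.16 ± 0.08 (adjusted p = 0.157), opposite in sign to the probe set above. At a mean of 6.61 it lies above the range of probe sets without target. Its difference between the genotype effects on the 2 diets was -0.13 ± 0.11 (adjusted p = 0.353), which did not pass, and casein minus soy in HCM mice was -0.22 ± 0.08 (adjusted p = 0.0198), so that the large values of Col5a1 rest on 1 of its 2 probe sets. Col5a2 encodes the α2 chain that joins α1 in the type V molecule. It had 5.99, 6.19 and 6.46 on casein HCM arrays, against 6.31, 6.48 and 6.90 on casein wild-type arrays, and 6.32, 6.47 and 6.59 on soy HCM arrays, against 6.07, 6.55 and 6.96 on soy wild-type arrays, with overlap in both pairs. It fell in HCM mice on casein, by -0.32 ± 0.08 (adjusted p = 0.00265), and was -0.07 ± 0.09 (adjusted p = 0.589) on soy. Against set B alone the casein difference was -0.19 ± 0.10 (adjusted p = 0.0999) and did not pass, and against set A it was -0.44 ± 0.10 (adjusted p = 0.000516).

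The paired type IV genes were lower in HCM mice on casein, and on soy Col4a1 was higher in HCM mice. Col4a1 had 9.22, 9.51 and 9.73 on casein HCM arrays, against 9.87, 9.95 and 10.31 on casein wild-type arrays, and the 2 groups did not overlap. On soy it had 9.62, 9.76 and 9.86 on HCM arrays, against 8.70, 9.39 and 9.90 on wild-type arrays, where the wild-type range was wide and enclosed the HCM one. Col4a1 fell in HCM mice on casein, -0.55 ± 0.10 (adjusted p = 3.91e-05), and rose on soy, 0.43 ± 0.11 (adjusted p = 0.00437), with a difference between those effects of -0.97 ± 0.14 (adjusted p = 4.14e-06). The casein difference was -0.52 against set A and -0.57 against set B.

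Col4a2 had 10.02, 10.46 and 10.71 on casein HCM arrays, against 10.53, 10.72 and 10.80 on casein wild-type arrays. On soy it had 10.33, 10.50 and 10.63 on HCM arrays, against 9.50, 10.23 and 10.62 on wild-type arrays, and both pairs overlapped. The difference was -0.27 ± 0.11 (adjusted p = 0.036) on casein and 0.30 ± 0.12 (adjusted p = 0.0555) on soy, where it did not pass, and the effects differed between diets by -0.57 ± 0.16 (adjusted p = 0.00415). The casein call for Col4a2 was lost without any 1 of 7 arrays, namely female casein HCM replicates 2 and 4, male casein HCM replicates 3 and 4, female casein wild-type replicate 1 or male casein wild-type replicates 3 and 4 (adjusted p up to 0.0998). It was also lost against either set alone, at an adjusted p of 0.156 for set A and 0.0587 for set B. Comparing diets in wild-type mice, both genes were higher on casein, Col4a1 by 0.71 ± 0.10 (adjusted p = 1.28e-06) and Col4a2 by 0.52 ± 0.11 (adjusted p = 0.000241). In HCM mice Col4a1 was -0.27 ± 0.11 (adjusted p = 0.0293) and Col4a2 -0.06 ± 0.12 (adjusted p = 0.696). The Col4a1 call in HCM mice was lost without any 1 of 6 arrays, namely female casein HCM replicate 2, male casein HCM replicates 2 and 3, female soy HCM replicates 1 and 3 or male soy HCM replicate 3 (adjusted p up to 0.0751), with arrays centred on their median (adjusted p = 0.0823) and with the array sets as a random block (adjusted p = 0.186).

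The other 3 type IV genes, Col4a3, Col4a4 and Col4a5, encode chains that are best known from the basement membrane of the kidney glomerulus. None of the 3 changed with genotype on casein, where the differences were -0.02 for Col4a3, 0.06 for Col4a4 and 0.04 for Col4a5. On soy Col4a5 was higher in HCM mice by 0.22 ± 0.07 (adjusted p = 0.0285), a call lost without any 1 of 7 arrays, namely female soy HCM replicates 1 and 3, male soy HCM replicate 2, female soy wild-type replicates 1 and 4 or male soy wild-type replicates 3 and 4 (adjusted p up to 0.098). Col4a5 was also lower on casein than on soy in HCM mice, by -0.27 ± 0.07 (adjusted p = 0.00197).

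All 3 type VI genes had a lower genotype effect on casein than on soy. For Col6a1 the effects differed by -0.38 ± 0.09 (adjusted p = 0.000801), for Col6a2 by -0.51 ± 0.13 (adjusted p = 0.00205) and for Col6a3 by -0.52 ± 0.11 (adjusted p = 0.000515). Col6a1 had 8.29, 8.68 and 8.91 on casein HCM arrays, against 8.86, 9.04 and 9.24 on casein wild-type arrays; 1 female HCM array, at 8.91, lay within the wild-type range and the others lay below it. It had 8.79, 9.03 and 9.15 on soy HCM arrays, against 8.70, 9.02 and 9.30 on soy wild-type arrays. Col6a1 fell in HCM mice on casein, -0.38 ± 0.06 (adjusted p = 7.3e-06), and was 0.01 ± 0.06 (adjusted p = 0.958) on soy. The casein difference was -0.34 against set A and -0.41 against set B. Its further probe set gave the same direction on casein, -0.68 ± 0.11 (adjusted p = 1.61e-05).

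Col6a2 had 8.45, 8.74 and 8.88 on casein HCM arrays, against 8.73, 8.83 and 9.19 on set A and 9.14, 9.36 and 9.62 on set B of the casein wild-type arrays. The HCM arrays lay below all of set B and overlapped set A. The difference over both sets was -0.41 ± 0.09 (adjusted p = 0.000342), against set B it was -0.65 ± 0.07 (adjusted p = 1.46e-07), and against set A it was -0.17 ± 0.07 (adjusted p = 0.067), which did not pass. On soy Col6a2 had 8.64, 8.78 and 8.89 on HCM arrays, against 8.41, 8.66 and 8.92 on wild-type arrays. Between diets in wild-type mice Col6a2 was higher on casein by 0.23 with set A and by 0.71 with set B. Its genotype effect differed between diets by -0.27 (adjusted p = 0.0291) with set A and -0.75 (adjusted p = 1.49e-06) with set B.

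For Col6a3 the soy comparison passed and the casein one did not. It had 8.18, 8.37 and 8.52 on soy HCM arrays, against 7.56, 8.04 and 8.26 on soy wild-type arrays, with overlap, and rose by 0.36 ± 0.08 (adjusted p = 0.00267). On casein it had 7.62, 7.96 and 8.42 on HCM arrays, against 7.89, 8.22 and 8.44 on wild-type arrays, a difference of -0.16 ± 0.08 (adjusted p = 0.0887) that did not pass. In HCM mice Col6a1 and Col6a3 were lower on casein than on soy, by -0.36 ± 0.06 (adjusted p = 2.3e-05) and -0.34 ± 0.08 (adjusted p = 0.00092).

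Col15a1 rose in HCM mice on soy, with 8.50, 8.82 and 9.02 on HCM arrays, against 7.90, 8.56 and 8.84 on wild-type arrays, a difference of 0.32 ± 0.12 (adjusted p = 0.0438). This call was lost without any 1 of 8 arrays, namely female soy HCM replicates 1 and 3, male soy HCM replicates 2 and 3, female soy wild-type replicates 1 and 4 or male soy wild-type replicates 2 and 4 (adjusted p up to 0.109). On casein it had 7.79, 8.28 and 8.65 on HCM arrays, against 7.98, 8.58 and 8.76 on wild-type arrays, and the difference was -0.18 ± 0.11 (adjusted p = 0.185). The effects differed between diets by -0.50 ± 0.16 (adjusted p = 0.0127), a call lost with set A as the casein wild-type arrays, at -0.36 (adjusted p = 0.0762), and in HCM mice Col15a1 was lower on casein than on soy by -0.51 ± 0.12 (adjusted p = 0.000464). Col18a1, the other multiplexin, whose fragment endostatin restrains vessel growth, did not pass for genotype, with 0.06 ± 0.06 (adjusted p = 0.386) on casein and -0.11 ± 0.06 (adjusted p = 0.168) on soy. Of its 4 further probe sets, the dimmest, at a mean of 5.10 and within the range of probe sets without target, was higher in HCM mice on casein by 0.37 ± 0.06 (adjusted p = 3.02e-05), and none of the other 3 passed for genotype on either diet. For the difference between diets that probe set gave 0.49 ± 0.10 (adjusted p = 0.000165) and the second brightest, at a mean of 7.61, gave 0.27 ± 0.10 (adjusted p = 0.0353). In HCM mice all 5 probe sets of Col18a1 were higher on casein than on soy and passed, by 0.19 to 0.56.

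**Figure D3:**
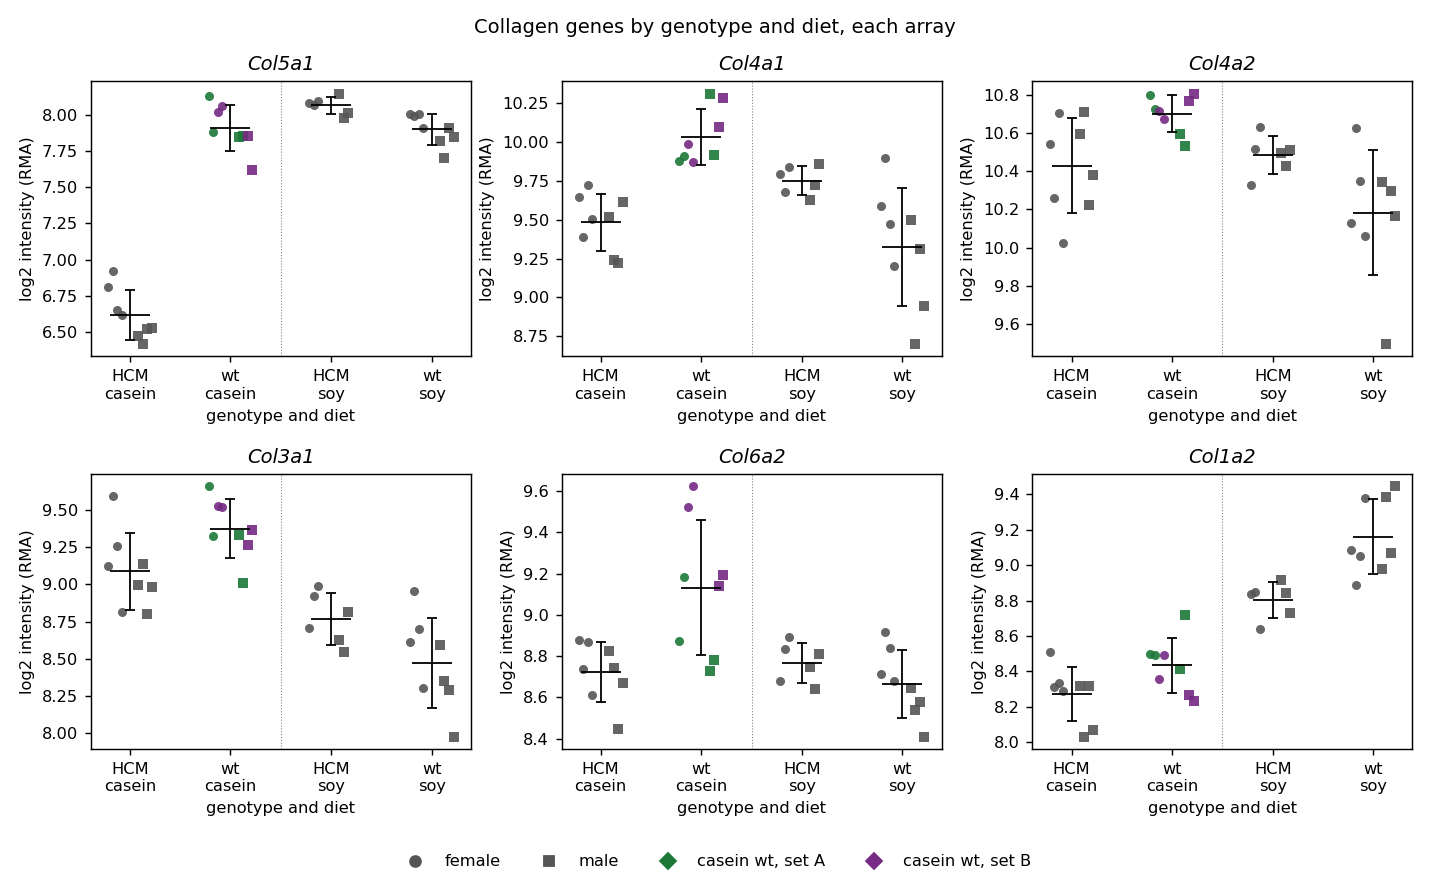
Log2 intensity (RMA) of 6 collagen genes on each array by genotype and diet, HCM left of wild type within each diet and casein left of soy; circles are females, squares are males, and marks and bars are the mean ± SD of 8 arrays, or of 6 for soy HCM. Green points are set A and purple points set B within casein wild type. Col5a1 on casein HCM arrays lies below all other arrays, Col4a1 is lower in HCM than in wild type on casein without overlap, and Col6a2 on casein wild-type arrays is higher in set B than in set A apart from 1 female array of set A at 9.19.

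Type I collagen, the main fibrillar collagen of the heart, is a heterotrimer of the chains encoded by Col1a1 and Col1a2. Col1a1 had 8.73, 8.84 and 9.36 on casein HCM arrays, against 8.66, 9.11 and 9.42 on casein wild-type arrays, and 8.58, 8.84 and 9.05 on soy HCM arrays, against 8.40, 8.95 and 9.30 on soy wild-type arrays, and all 4 ranges overlapped. Its genotype difference was -0.12 ± 0.10 (adjusted p = 0.332) on casein and -0.07 ± 0.11 (adjusted p = 0.673) on soy. Casein minus soy was 0.10 ± 0.11 (adjusted p = 0.425) in HCM mice and 0.15 ± 0.10 (adjusted p = 0.213) in wild-type mice, so that no comparison of Col1a1 passed in the main fit. With arrays centred on their median, casein minus soy averaged over genotype and sex was 0.185 (adjusted p = 0.0363) and passed. With array weights, female minus male was 0.242 (adjusted p = 0.0468) and passed.

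Col1a2 had 8.03, 8.32 and 8.51 on casein HCM arrays, against 8.23, 8.45 and 8.72 on casein wild-type arrays, and 8.64, 8.84 and 8.92 on soy HCM arrays, against 8.89, 9.08 and 9.44 on soy wild-type arrays. In wild-type mice the casein arrays lay wholly below the soy arrays, by -0.72 ± 0.08 (adjusted p = 2.65e-08), and in HCM mice likewise, by -0.53 ± 0.09 (adjusted p = 5.3e-06). Col1a2 was lower in HCM than in wild-type mice on soy, -0.36 ± 0.09 (adjusted p = 0.00331), and was -0.16 ± 0.08 (adjusted p = 0.0912) on casein, where against set A alone it was -0.26 and passed (adjusted p = 0.0236).

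Col3a1, the single chain gene of type III collagen, had 8.80, 9.06 and 9.59 on casein HCM arrays, against 9.01, 9.35 and 9.66 on casein wild-type arrays, and 8.54, 8.76 and 8.99 on soy HCM arrays, against 7.98, 8.47 and 8.95 on soy wild-type arrays. In wild-type mice each casein array lay above each soy array, with a difference of 0.90 ± 0.10 (adjusted p = 2.92e-08), and in HCM mice the diets overlapped, with 0.32 ± 0.11 (adjusted p = 0.0109). The call in HCM mice was lost with quantile normalization, at 0.19 (adjusted p = 0.115), and with the array sets as a random block (adjusted p = 0.115). The genotype difference was -0.29 ± 0.10 (adjusted p = 0.0173) on casein and 0.30 ± 0.11 (adjusted p = 0.0429) on soy, and these differed by -0.58 ± 0.15 (adjusted p = 0.00187). The casein call was lost without female casein HCM replicate 4 (adjusted p = 0.0545) and against set A alone (adjusted p = 0.113). The soy call was lost without any 1 of 9 arrays, namely female soy HCM replicates 2 and 3, male soy HCM replicates 1 and 3, female soy wild-type replicates 1, 3 and 4 or male soy wild-type replicates 3 and 4 (adjusted p up to 0.118).

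The probe sets of a gene did not always give the same answer, and for type I and type III collagen the choice of probe set decided the direction. For Col1a2 the further probe set, at a mean of 8.24, gave 0.16 ± 0.07 (adjusted p = 0.0743) for casein minus soy in wild-type mice and -0.11 ± 0.08 (adjusted p = 0.224) in HCM mice, where the brighter one gave -0.72 and -0.53. For genotype on soy it gave 0.20 ± 0.08 (adjusted p = 0.0605). For Col1a1 the further probe set, at a mean of 8.37, was lower in HCM mice on casein, -0.43 ± 0.07 (adjusted p = 2.34e-05), higher in HCM mice on soy, 0.22 ± 0.08 (adjusted p = 0.0419), and lower on casein than on soy in HCM mice, -0.67 ± 0.08 (adjusted p = 4.91e-08), where the brighter probe set passed in none of these. Adjusted p-values of further probe sets are over all 10833 probe sets.

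For Col3a1 both further probe sets were dim, with means of 5.22 and 4.27, inside the range given by probe sets without target. They were higher in HCM mice on casein, by 0.42 and 0.49, where the bright one fell. Of the 9 collagen genes with several probe sets, Col3a1 was the only one called in both directions in a comparison. For sex the probe sets of the type I, III, V and VI genes pointed the same way: the further probe set of Col6a1 differed by 0.19 ± 0.08 (adjusted p = 0.5) and that of Col5a1 by 0.08 ± 0.06 (adjusted p = 0.672), neither of which passed.

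**Figure D4:**
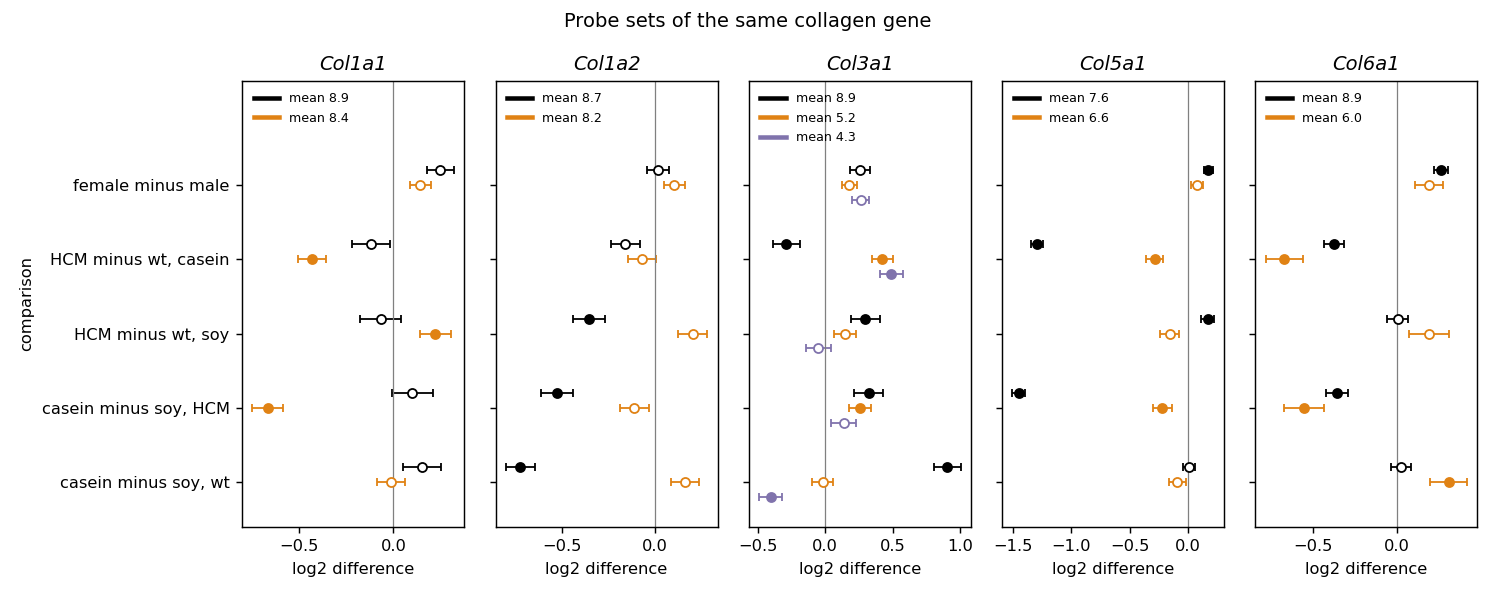
Log2 differences ± standard error from limma (horizontal axis) in 5 comparisons (rows) for each probe set of Col1a1, Col1a2, Col3a1, Col5a1 and Col6a1; colours are probe sets, labelled with their mean log2 intensity over 30 arrays, and filled points have an adjusted p below 0.05. The black points are the brightest probe set of each gene, and for Col3a1 on casein they lie left of 0 while both dimmer probe sets lie right of it.

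Among the minor fibrillar chains, Col11a1, a chain of type XI collagen that is best known from cartilage fibrils, had 4.06, 4.24 and 4.49 on casein HCM arrays, against 4.30, 4.52 and 4.66 on casein wild-type arrays, and 4.54, 4.71 and 4.85 on soy HCM arrays, against 4.64, 4.79 and 5.07 on soy wild-type arrays. It was lower in HCM mice on casein, -0.25 ± 0.06 (adjusted p = 0.000759), and lower on casein than on soy in both genotypes, by -0.44 ± 0.06 (adjusted p = 7.35e-07) in HCM and -0.30 ± 0.06 (adjusted p = 0.00012) in wild-type mice. These values are inside the range of probe sets without target. Col2a1, the chain of cartilage type II collagen, had 5.82, 5.90 and 6.26 on casein HCM arrays, against 5.43, 5.67 and 5.86 on casein wild-type arrays, and 5.57, 5.71 and 5.96 on soy HCM arrays, against 5.81, 5.91 and 6.29 on soy wild-type arrays. Its genotype difference was 0.28 ± 0.07 (adjusted p = 0.0021) on casein and -0.23 ± 0.08 (adjusted p = 0.0288) on soy, with 0.51 ± 0.11 (adjusted p = 0.000284) between them. At a mean of 5.83 Col2a1 lies just above the range of probe sets without target. Its medians on casein wild-type and soy HCM arrays lie within that range. The soy call of Col2a1 was lost without any 1 of 6 arrays, namely female soy HCM replicate 3, male soy HCM replicates 2 and 3, female soy wild-type replicate 4 or male soy wild-type replicates 2 and 4 (adjusted p up to 0.0893).

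Among the fibril-associated chains, Col9a2, a chain of type IX collagen that decorates cartilage fibrils, had 7.15, 7.38 and 7.58 on casein HCM arrays, against 7.92, 8.05 and 8.22 on set A and 7.38, 7.68 and 7.80 on set B of the casein wild-type arrays. The HCM arrays lay below all of set A and overlapped set B. The difference was -0.67 ± 0.09 (adjusted p = 8.61e-07) against set A and -0.25 ± 0.09 (adjusted p = 0.0233) against set B. On soy Col9a2 had 7.26, 7.35 and 7.67 on HCM arrays, against 7.06, 7.18 and 7.48 on wild-type arrays, a difference of 0.19 ± 0.10 (adjusted p = 0.145). In wild-type mice Col9a2 was higher on casein than on soy by 0.84 with set A and by 0.42 with set B. Col9a1 and Col9a3, the other chains of type IX, differed by 0.00 and -0.17 between HCM and wild-type mice on casein, and neither passed. The further probe set of Col9a3, at a mean of 4.93, gave 0.10 ± 0.05 (adjusted p = 0.0953). The genotype effect of Col9a2 differed between diets by -0.86 (adjusted p = 1.72e-06) with set A and -0.44 (adjusted p = 0.00334) with set B.

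Col12a1 encodes a chain found on the surface of type I fibrils. It had 5.17, 5.33 and 5.61 on casein HCM arrays, against 5.51, 5.64 and 5.88 on casein wild-type arrays, and 5.44, 5.52 and 5.75 on soy HCM arrays, against 5.38, 5.53 and 5.62 on soy wild-type arrays. It fell in HCM mice on casein, -0.30 ± 0.06 (adjusted p = 0.000113), and was 0.03 ± 0.06 (adjusted p = 0.763) on soy. Its further probe set, at a mean of 4.83, gave -0.08 ± 0.08 (adjusted p = 0.373) on casein and -0.03 ± 0.11 (adjusted p = 0.85) for the difference between diets, and neither passed. Col14a1, which also binds fibril surfaces, had 5.71, 5.96 and 6.13 on casein HCM arrays, against 5.98, 6.13 and 6.51 on set A and 5.72, 5.90 and 6.05 on set B of the casein wild-type arrays, and 5.89, 6.16 and 6.46 on soy HCM arrays, against 6.12, 6.26 and 6.60 on soy wild-type arrays. Averaged over genotype and sex it was lower on casein by -0.26 ± 0.05 (adjusted p = 0.000127), and in wild-type mice the difference was -0.15 with set A, which did not pass (adjusted p = 0.132), and -0.45 with set B. Between HCM and wild-type mice on casein Col14a1 was -0.26 ± 0.08 (adjusted p = 0.00921) against set A and 0.04 ± 0.08 (adjusted p = 0.674) against set B, opposite in sign. Col22a1, known from tissue junctions such as that of muscle with tendon, had 4.26, 4.37 and 4.53 on casein HCM arrays, against 4.21, 4.41 and 4.70 on casein wild-type arrays, and 4.19, 4.31 and 4.42 on soy HCM arrays, against 4.39, 4.50 and 4.89 on soy wild-type arrays. It was lower in HCM mice on soy, -0.25 ± 0.06 (adjusted p = 0.00605). Col12a1 and Col22a1 lie within the range of probe sets without target.

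The remaining members are given by their differences alone. Between HCM and wild-type mice on casein, Col26a1 was higher by 0.28 and the transmembrane chain Col13a1 by 0.20, and Col11a2 was lower, with a difference of -0.24, and these 3 passed. The Col11a2 call was lost without any 1 of 9 arrays, namely female casein HCM replicates 1, 3 and 4, male casein HCM replicates 3 and 4, female casein wild-type replicates 3 and 4 or male casein wild-type replicates 2 and 3 (adjusted p up to 0.0997), and against set A alone (adjusted p = 0.28). The further probe set of Col13a1 gave -0.09 on casein, opposite in sign, and 0.03 ± 0.10 (adjusted p = 0.803) for the difference between diets. Col7a1, Col8a1, Col10a1, Col17a1 and Col19a1, together with Col18a1 and Col9a1, did not pass for genotype on either diet, with differences between -0.14 for Col9a1 on soy and 0.12 for Col17a1 on casein.

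Averaged over diet and sex, HCM minus wild type was -0.56 ± 0.04 (adjusted p = 2.43e-11) for Col5a1, -0.26 ± 0.06 (adjusted p = 0.00107) for Col1a2, -0.19 ± 0.06 (adjusted p = 0.0162) for Col5a2 and -0.19 ± 0.04 (adjusted p = 0.00171) for Col6a1. The other calls were smaller, at -0.18 for Col11a1, -0.15 for Col22a1, -0.14 for Col14a1, -0.13 for Col12a1, 0.13 for Col4a5 and 0.11 for Col26a1. The average of Col5a1 joins -1.29 on casein with 0.17 on soy, and that of Col6a1 joins -0.38 with 0.01. Over both diets the further probe set gave -0.22 for Col5a1, -0.24 for Col6a1, -0.07 for Col12a1 and 0.07 for Col1a2. With set B as the casein wild-type arrays Col14a1 was -0.07 (adjusted p = 0.335) and Col5a2 -0.13 (adjusted p = 0.109), and neither passed. With set A Col26a1 was 0.09 (adjusted p = 0.0954) and Col4a5 0.09 (adjusted p = 0.163), and neither passed. Averaged over genotype and sex, casein minus soy was -0.72 ± 0.04 (adjusted p = 4.38e-15) for Col5a1, -0.63 ± 0.06 (adjusted p = 2.95e-10) for Col1a2, 0.61 ± 0.07 (adjusted p = 3.27e-08) for Col3a1 and -0.37 ± 0.04 (adjusted p = 1.86e-08) for Col11a1. This average of Col5a1 joins -1.45 in HCM mice with 0.01 in wild-type mice. The further probe sets gave -0.16 for Col5a1, 0.02 for Col1a2, and 0.12 and -0.13 for Col3a1, and of these only that of Col5a1 passed. Col9a2 was higher on casein by 0.31, which was 0.41 (adjusted p = 1.32e-06) with set A and 0.20 (adjusted p = 0.00442) with set B. Col15a1 was lower on casein, with -0.26, a call lost with the array sets as a random block (adjusted p = 0.0705), and in wild-type mice alone the difference was -0.01 (adjusted p = 0.932). Col4a2 was higher by 0.23, a direction that turned to -0.04 when quantile normalization was added.

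A fit that treated the array sets as a random block kept fewer of the genotype and diet calls. Only casein wild type was divided, into sets A and B, so that the fit measured differences between sets from that split alone. The fit cannot separate genotype or diet from a difference between sets, and this holds for the calls it kept. Calls among all genes became fewer as well. For genotype the fit called 958 genes in place of 2814 averaged over diet, and 2419 in place of 4093 on casein. For the difference of the genotype effect between diets it called 1867 in place of 3718. For diet it called 3731 in place of 5187 averaged over genotype. Within HCM mice that was 3537 in place of 5122, and within wild-type mice 2256 in place of 3876. For genotype averaged over diet it kept Col5a1 (adjusted p = 3.55e-07) and Col1a2 (adjusted p = 0.0462), and for genotype on soy it called none in limma's test, with 4 members at an unadjusted p below 0.05 and 259 of all genes called. For genotype on casein it kept 10 of 14, which included Col5a1 (adjusted p = 6.31e-13), Col6a1 (adjusted p = 0.00165), Col4a1 (adjusted p = 0.00504), Col9a2 (adjusted p = 0.00534) and Col6a2 (adjusted p = 0.00718). For the difference of the genotype effect between diets it kept 8 of 13, with all 3 type VI genes, Col5a1 and Col4a1 among them, and not Col3a1, Col4a2, Col12a1, Col13a1 or Col15a1. For diet averaged over genotype it did not keep Col4a1, Col4a2, Col5a2, Col9a1, Col10a1, Col13a1, Col15a1, Col18a1, Col19a1 or Col26a1. For diet in HCM mice it did not keep Col2a1, Col3a1, Col4a1, Col4a3, Col5a2, Col12a1, Col14a1 or Col18a1, and for diet in wild-type mice it did not keep Col4a4, Col9a1, Col10a1 or Col12a1. For sex, which is balanced over the sets, the same fit kept all 4 calls and added Col14a1 (adjusted p = 0.0365).

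Genes that process collagen were called about as often as genes at large for genotype on casein. Their share was above that of all genes for genotype on soy and for diet, which was not tested and rests on few genes. Of the 18 measured processing genes, 5 were higher and 4 lower in HCM mice on casein, 9 in all against 49.6% of all genes, and 2 were higher and 4 lower on soy, 6 in all against 25% of all genes. On casein the largest was P4ha2, an α subunit of the prolyl hydroxylase that stabilizes the triple helix, with a difference of -0.56 ± 0.07 (adjusted p = 1.97e-07). P3h3, a prolyl 3-hydroxylase, differed by 0.45 ± 0.08 (adjusted p = 1.57e-05), P4ha1, the alternative hydroxylase subunit, by 0.38 ± 0.09 (adjusted p = 0.00123) and Serpinh1, the collagen chaperone of the endoplasmic reticulum, by 0.32 ± 0.10 (adjusted p = 0.0112). On soy Sparc, which binds collagen in the matrix, rose by 0.55 ± 0.17 (adjusted p = 0.0198) in HCM mice, while Loxl1, a lysyl oxidase-like cross-linking enzyme, differed by -0.39 ± 0.12 (adjusted p = 0.0185). Comparing diets over both genotypes, 9 of the 18 were higher and 5 lower on casein, 14 in all against 62.9% of all genes, with Sparc at 0.92 ± 0.12 (adjusted p = 9.14e-08), the prolyl isomerase Ppib at 0.72 ± 0.06 (adjusted p = 1.76e-11) and P3h4 at 0.52 ± 0.06 (adjusted p = 1.98e-08). Of the 5 measured receptor genes, the collagen-binding kinase Ddr2 was lower in HCM mice on casein, -0.49 ± 0.10 (adjusted p = 0.000208), and the integrin chain Itgb1 was higher in HCM mice on soy, 0.53 ± 0.13 (adjusted p = 0.00384).

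Markers of the cells of the heart moved in the same comparisons, in which 49.6% of all genes passed for genotype on casein and 25% on soy. On casein 5 of 12 fibroblast markers were higher and 3 lower in HCM mice, so that the list moved both ways. The higher ones included Lum at 0.68 ± 0.11 (adjusted p = 5.32e-06) and the matrix protein gene Postn at 0.71 ± 0.19 (adjusted p = 0.00319). The lower ones included Ddr2, whose value is given above with the receptor genes. The mean of the fibroblast list was 7.47 to 7.84 on casein HCM arrays, against 7.42 to 7.70 on casein wild-type arrays. Of 7 smooth muscle and pericyte markers 5 were higher and none lower in HCM mice on casein, with a list mean of 7.71 to 8.02 on HCM arrays, against 7.17 to 7.56 on wild-type arrays. Of 7 endothelial markers 3 were lower and none higher in HCM mice on casein, and 3 were higher and none lower on soy. The list mean of the endothelial markers was 7.61 to 7.89 on casein HCM arrays, against 7.88 to 8.03 on casein wild-type arrays, and 7.84 to 8.01 on soy HCM arrays, against 7.27 to 8.0 on soy wild-type arrays. Of 7 cardiomyocyte markers, 6 were higher and none lower in HCM mice on soy, and 3 were higher and 1 lower on casein. Their list mean was 11.34 to 11.45 on soy HCM arrays, against 10.79 to 11.18 on soy wild-type arrays, without overlap. On casein it was 11.47 to 11.62 on HCM arrays, against 11.42 to 11.60 on wild-type arrays. All 7 cardiomyocyte markers were higher on casein than on soy in wild-type mice. The background of that diet comparison was 47% of all genes, with 21.6% called as a rise on casein.

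Of 4 atrial markers, 3 were higher and none lower in HCM mice on casein, and none was higher and 2 lower on soy. The atrial list mean was 7.51 to 8.58 on casein HCM arrays, against 6.82 to 7.65 on casein wild-type arrays, and 7.17 to 7.70 on soy HCM arrays, against 7.47 to 8.01 on soy wild-type arrays. Of 3 Schwann cell markers, 2 were higher and none lower in HCM mice on casein, with a list mean of 6.39 to 6.59 on HCM arrays, against 6.12 to 6.33 on wild-type arrays, without overlap. On soy 1 was higher and 1 lower, with overlapping list means. Of 6 macrophage markers 2 were higher and 2 lower in HCM mice on casein and none passed on soy, and of 7 skeletal muscle markers 1 was higher and 1 lower on casein and 1 was lower on soy. The list means of cartilage and bone markers were 4.61 to 5.03, within the range of probe sets without target. The part of these cell types in the collagen differences was not tested.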

How the data were processed

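RNA from mouse left ventricle, pooled from 2 animals per sample, was hybridized to 30 single-colour arrays in 8 groups. The deposited values are log2 intensities per probe set, which the submitters' processing notes credit to RMA and to the Affymetrix Expression Console without a version; RMA corrects background, normalizes between arrays and summarizes probes. Scanner files were not used here, and arrays carry no read depth, so that the number of arrays limits the precision.

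Of 12488 probe sets, 66 were controls, 10833 had 1 gene symbol, 396 had several and 1193 had none in the platform annotation. Each of 8251 genes was represented by its brightest probe set on average across the 30 arrays, a choice that uses no group. limma 3.58.1 in R 4.3.3 fitted 1 mean per group to all 30 arrays (22 residual and 6.158 prior degrees of freedom), the comparisons were contrasts of those means, weighting groups equally, and p-values were adjusted by the Benjamini-Hochberg method over all genes for each comparison at 0.05. A second fit divided the casein wild-type arrays into sets A and B. The code was tested on simulated data.

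The 31 members and all gene lists were chosen with earlier results of these data known. Values per array are given for members past the threshold in the averaged comparisons and the genotype by diet difference, up to 8 per comparison in order of size, and for Col1a1, Col1a2, Col3a1, Col4a1, Col4a2 and Col5a1; from the processing and receptor lists up to 4 genes per comparison were named by the same order. Of 32 processing genes 18 were measured, and of 10 receptor genes 5. Alternatives were other probe sets of the same gene, centring, quantile normalization, array weights, leaving out dim genes, an intensity trend, a replicate block, array sets as a random block, leaving out the casein HCM arrays, set A or B alone and leaving out each array. Correlations between arrays over all genes were 0.93 to 0.997 and no 2 arrays were identical. Sequences came from RefSeq (GRCm38.p6).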

Additional observations from a re-analysis of the deposited data

Results flagged for a closer look

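The genotype effect differed between diets by a test of that difference for 13 collagen genes. The effect on casein minus that on soy was -1.46 for Col5a1, -0.97 for Col4a1, -0.65 for Col9a2, -0.58 for Col3a1, -0.57 for Col4a2, -0.52 for Col6a3, -0.51 for Col6a2, -0.50 for Col15a1, -0.38 for Col6a1 and -0.33 for Col12a1. It was 0.51 for Col2a1, 0.35 for Col26a1 and 0.28 for Col13a1. These 13 of 31 stand beside 45.1% of all genes. The further probe set gave -0.13 for Col5a1 (adjusted p = 0.353), -0.03 for Col12a1 (adjusted p = 0.85) and 0.03 for Col13a1 (adjusted p = 0.803), and none of these passed.

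Single arrays stood far from the rest of their group in 10 of 186 combinations of gene and group with at least 4 arrays, 5.38%, and chance gives about 1 in 20. The number given for each is its gap to the nearest array divided by the range of the group. In male soy wild-type mice, replicate 2 was highest for Col11a2 (0.866; 7.87, against 7.12 for the nearest), highest for Col7a1 (0.865) and lowest for Col13a1 (0.969). In female soy wild-type mice, replicate 4 was lowest for Col5a1 (0.861) and highest for Col4a4 (0.970). In male casein wild-type mice, replicate 4 was lowest for Col5a1 (0.973; 7.62, against 7.85 for the nearest). In female casein wild-type mice, replicate 3 was lowest for Col1a2 (0.953) and replicate 4 was highest for Col1a1 (0.864). In casein HCM mice, replicate 4 of the males was highest for Col1a1 (0.846) and replicate 4 of the females was highest for Col2a1 (0.848).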

How the results depend on the processing

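Leaving out each array in turn gave 7 to 11 called collagen genes for HCM over both diets, 12 to 16 on casein and 4 to 11 on soy, where the lowest count came without female soy wild-type replicate 4. It gave 15 to 19 for diet over both genotypes, 12 to 19 in HCM and 11 to 16 in wild-type mice, 2 to 5 for sex, 13 to 16 for the genotype by diet difference, 2 to 3 for set A against set B, and 0 for both differences by sex. With the array sets as a random block, at a correlation of 0.167, the counts were 2 for HCM over both diets, 0 for HCM on soy, 9 for diet, 8 for diet in HCM mice and 8 for the genotype by diet difference. Among all genes that fit called 958, 259, 3731, 3537 and 1867 in the same order, in place of 2814, 2063, 5187, 5122 and 3718. Without the dimmest 40% of genes, which hold 9 members and shorten the list tested, the collagen counts were 6 for HCM, 9 for HCM on casein and 9 for diet in wild-type mice. Among all genes left in that list 2037, 2742 and 2697 were called in the same order. Array weights gave 14 for HCM on soy and 7 for sex. With them the calls among all genes rose from 2063 to 3503 and from 22 to 83. Without the casein HCM arrays sex gave 0, and with the next probe set of each gene it gave 1.

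Replicate numbers are shared between groups and were not taken to pair the samples. Deviations from the group means correlated above 0.1 in 25 of 99 same-numbered pairs (-0.57 to 0.63) and in 7 of the 15 such pairs that join a male and a female array of 1 diet and genotype (-0.30 to 0.52). In casein wild-type mice the numbers coincide with sets A and B. As a replicate block, the numbers gave 4 called genes for HCM on soy in place of 9 and moved no other count by over 1.5 times.

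Directions turned as follows, and the cause was not tested. Quantile normalization gave -0.0383 for Col4a2 between diets. Without the casein HCM arrays, the genotype comparison, then on soy alone, gave 0.0295 for Col12a1, -0.0702 for Col26a1, 0.426 for Col4a1, 0.166 for Col5a1 and 0.00588 for Col6a1, and the diet comparison, then in wild type alone, gave 0.00928 for Col5a1 and 0.0239 for Col6a1. The next probe set gave, for HCM over both diets, 0.066 for Col1a2, and for HCM on soy 0.223 for Col1a1, 0.202 for Col1a2 and -0.157 for Col5a1. For HCM on casein it gave -0.0876 for Col13a1 and 0.424 for Col3a1. For diet it gave -0.0126 for Col13a1, -0.339 for Col1a1 and 0.0243 for Col1a2, in wild-type mice 0.161 for Col1a2 and -0.0191 for Col3a1, and in HCM mice 0.00807 for Col12a1 and -0.667 for Col1a1. For the genotype by diet difference it gave -0.272 for Col1a2 and 0.28 for Col3a1. The dimmest Col3a1 probe set gave -0.052 for HCM on soy, 0.489 for HCM on casein, -0.134 for diet, -0.404 for diet in wild-type mice and 0.541 for the genotype by diet difference. Set A or set B alone as the casein wild-type arrays, tried after seeing the data for the averaged and genotype by diet comparisons, gave 9 and 9 called genes for HCM, 15 and 19 for diet, and 15 and 14 for the genotype by diet difference. Members near the level of probe sets without target are limited by that background.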
